A study of Rattus norvegicus with 6 samples.

Results

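The genes described here move iron in and out of liver cells, store it, or control hepcidin, the liver hormone that sets iron entry into the blood. They were chosen as 10 rat symbols (Hamp, Tf, Tfrc, Tfr2, Fth1, Ftl1, Slc40a1, Slc11a2, Hfe and Bmp6), each found through the accession of its array probes. All 10 had a probe, 25 probes among the 61657 non-control probes of the array, and 10 genes among the 15284 that a probe could be matched to. Liver RNA came from 6 male Sprague-Dawley rats bought at 5 weeks of age and kept on a basal diet. The treated group of 3 rats received o-anthranilic acid, an aromatic amino acid that arises when tryptophan is broken down, at 1000 mg/kg/day, and the control group of 3 rats received corn oil, the vehicle. One label gives 9 weeks of dosing and another gives 28 days, so the duration is not settled. Each rat had 1 single-colour array (Cy3), and no group carried an altered gene.

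Body iron is regulated at its entry to plasma. Hepcidin, encoded by Hamp and made by hepatocytes, binds the iron exporter ferroportin (Slc40a1) and causes its loss from the cell surface. Hepatocytes adjust Hamp to iron through BMP6, a ligand made mainly by endothelial cells of the liver, and through the membrane proteins HFE and TFR2, which sense transferrin that carries iron; inflammation raises Hamp through interleukin 6 and STAT3, and active red cell production lowers it. Cells take up transferrin (Tf) through the transferrin receptor (Tfrc), whose mRNA is stabilised when cell iron is low, and keep surplus iron in ferritin, a shell of heavy (Fth1) and light (Ftl1) chains.

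The promoters of Hamp and Tfrc are shown because these 2 genes carry the patterns described below. Each line is the 250 bases before the annotated start of the gene, read 5′ to 3′ on the gene's strand, from RefSeq on build GRCr8 (Hamp chr1:95300272-95300521, Tfrc chr11:81690319-81690568, both on the minus strand). Capitals mark the letters matched by 4 motifs searched on both strands: GGCGCC of the BMP-responsive element, TTCNNNGAA of STAT factors, ACGTG of the hypoxia response, and TGACNNNGC of the antioxidant response. The first and second of these read the same on either strand.
Hamp: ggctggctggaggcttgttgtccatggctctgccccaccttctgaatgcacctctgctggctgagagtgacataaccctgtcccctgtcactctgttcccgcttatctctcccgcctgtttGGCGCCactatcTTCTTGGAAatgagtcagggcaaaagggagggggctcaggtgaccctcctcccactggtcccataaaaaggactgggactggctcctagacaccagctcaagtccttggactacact
Tfrc: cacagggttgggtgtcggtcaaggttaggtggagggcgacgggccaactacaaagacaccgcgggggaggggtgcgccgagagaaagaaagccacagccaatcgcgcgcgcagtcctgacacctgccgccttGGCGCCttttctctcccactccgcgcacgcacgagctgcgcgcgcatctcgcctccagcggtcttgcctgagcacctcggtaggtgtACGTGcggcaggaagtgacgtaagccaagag

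The Hamp window held GGCGCC from 129 to 124 bases before the start, followed after a gap by the STAT match TTCTTGGAA from 117 to 109 bases before it. The Tfrc window held GGCGCC from 118 to 113 bases before the start and ACGTG from 31 to 27 bases before it. Among 33469 rat promoter windows of this length, 8.70% held GGCGCC, 7.67% the STAT motif, 16.6% ACGTG and 10.1% the antioxidant motif. RefSeq windows were matched for 7 of the 10 genes, and none of the other 5 (Tf, Tfr2, Slc40a1, Slc11a2 and Bmp6) held any of the 4 motifs. A match describes letters and is not evidence of binding.

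The arrays were comparable in depth. Between 53.3% and 56.6% of probes were well above background on the anthranilic acid arrays, and between 56.2% and 58.0% on the corn oil arrays, no spot was saturated, and arrays of 1 group correlated at r = 0.987 to 0.992 across probes. All 7 hepatocyte markers were measured. Levels below are processed signals as multiples of the 75th percentile of all probes on that array, and a difference is the mean log2 signal of anthranilic acid livers minus that of corn oil livers. Its standard error (SE) and 95% interval come from limma, with 3 arrays per group. Adjusted p-values come from this limma fit, corrected by the Benjamini-Hochberg method over the 33428 tested probes, or, where an array is said to be left out, from the same fit without it. Levels of different probes on an array do not rank the amounts of their transcripts. Where a marker is called brightest or signals are summed, this refers to probe signal only, and bright probes weigh most in a sum. The labels number the rats but do not say whether they were housed or dosed apart. Anthranilic acid replicate 3 lay on slide 2, and the other 5 arrays lay on slide 1, where the corn oil arrays held 1 row and the treated arrays the other. On that slide an effect of row and one of treatment cannot be told apart.

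No iron gene changed by the test. Testing required a signal well above background on every array of 1 group or the other, which held for 24 of the 25 probes and for 9 of the 10 genes, Bmp6 being the exception. At an adjusted p under 0.05, 0 of these 24 probes passed by limma, where 0.0329% of all tested probes did, and 0 of the 9 genes, where 0% of all 10257 tested genes did. Where a gene had several tested probes, the one with the highest mean signal stood for it. At unadjusted p under 0.05 there were 2 of 9 genes, Tfrc and Hfe, both higher in treated livers, against 11.6% of all genes (5.47% higher and 6.16% lower). In 18 alternative fits the count of iron genes past the threshold stayed at 0. Among the iron genes, the widest spread within a group was that of Hamp among corn oil livers.

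Hamp had signals of 143, 361 and 319 times the 75th percentile in livers of anthranilic acid rats 1, 2 and 3, against 278, 299.98 and 23.3 times in livers of corn oil rats 1, 2 and 3. Corn oil rat 3 lay far below all other animals, and the other 5 livers overlapped. The mean difference was 1.03 (SE 1.02, adjusted p = 0.699), with an interval from -1.45 to 3.50, or from 0.367-fold to 11.3-fold. The sign rested on 1 animal: without corn oil replicate 3 the difference was -0.18 (adjusted p = 0.880). Leaving out any of the other arrays in turn gave between 0.78 and 1.66.

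**Figure D1:**
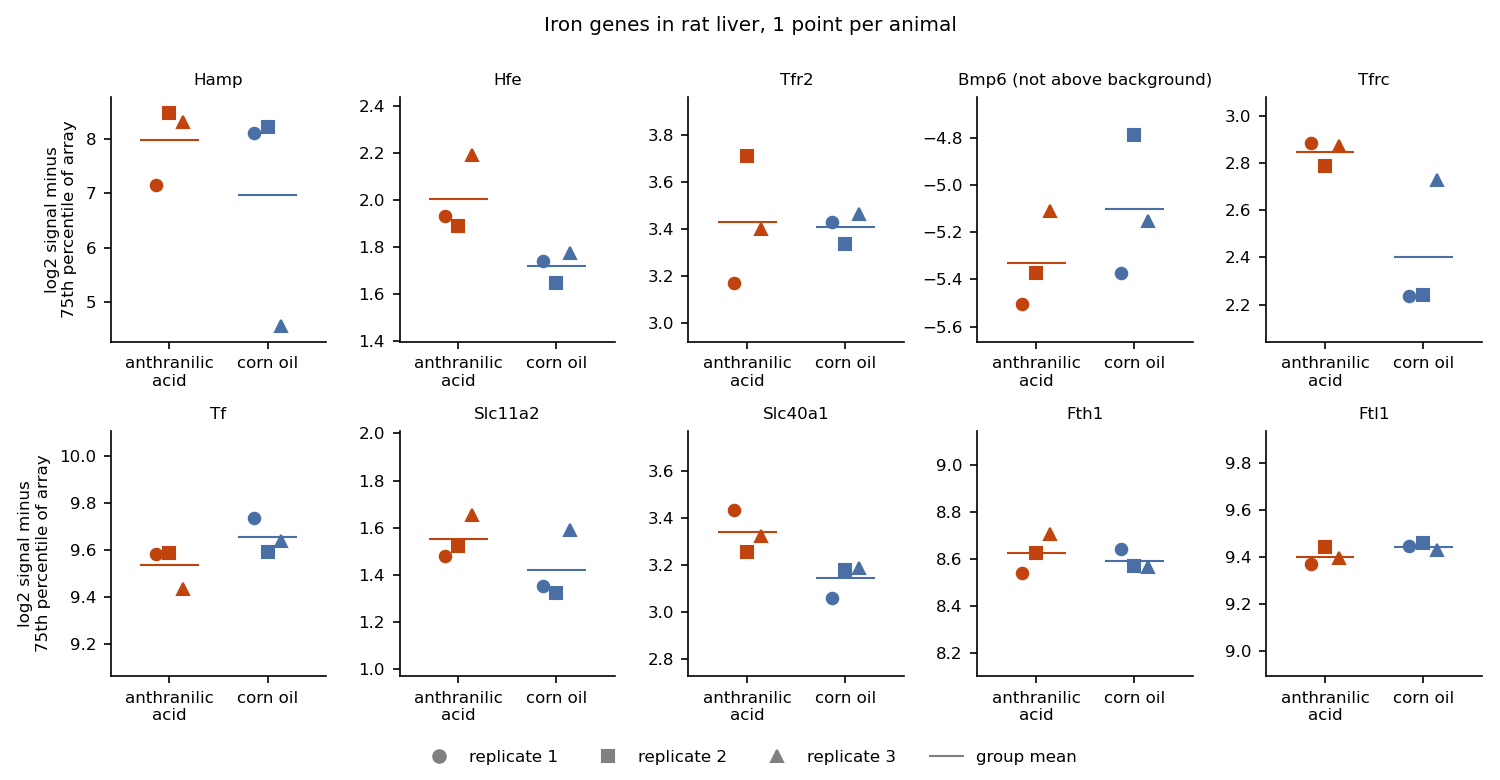
Signal of each iron gene at its representative probe, as log2 of the signal minus the 75th percentile of the array (y axis, a range of its own in each panel, at least 1 log2 unit tall), with 1 point per rat, anthranilic acid left of corn oil, and the group mean as a line. Hamp of corn oil replicate 3 stands at 4.54 while the other 5 livers stand between 7.16 and 8.50, and Bmp6 was not well above background on any array.

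The low Hamp signal of corn oil replicate 3 was 12.4-fold under the mean of corn oil replicates 1 and 2. The range of Hamp within the corn oil group, 3.69 on the log2 scale, was exceeded by 0.0975% of the 10257 tested genes, and the median gene had a range of 0.24. Hamp was read by a single probe, A_42_P574859, so that no second probe bears on this value. The spot was well above background, unsaturated and without an outlier flag on all 6 arrays. Within the anthranilic acid group the Hamp range was 1.33, with the low value in replicate 1, and 2.90% of genes had a larger one.

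Other genes in the liver of corn oil replicate 3 also deviated from the mean of corn oil replicates 1 and 2, in both directions. These genes were picked after their values were seen, and the comparison of 1 rat with 2 rats has no test. Corn oil replicates 1 and 2 also differed from each other, so not every deviation sets replicate 3 apart. In corn oil replicates 1, 2 and 3 Stat3 read 2.40, 3.05 and 3.22 (log2), Smad6 0.384, 0.007 and -0.234, and the globin gene Hba-a1 8.66, 8.29 and 9.03. Id1, a direct target of BMP signalling, stood 0.91 lower in corn oil replicate 3 on the log2 scale, and the inhibitory SMAD genes Smad6 and Smad7, which the pathway also induces, stood 0.43 and 0.37 lower. Atoh8, a transcription factor that follows BMP signalling, stood 0.28 lower. Id1 was also low in treated livers, at -2.60, -2.35 and -2.17 (log2) in anthranilic acid rats 1, 2 and 3. Corn oil replicate 3 read -2.66, and corn oil replicates 1 and 2 read -1.79 and -1.72. In treated rats 1, 2 and 3 Smad7 read 0.745, 2.081 and 2.017, against 0.829 in corn oil replicate 3. Atoh8 read 1.802, 1.745 and 1.935, against 1.740. Smad6 read -0.100, 0.292 and 0.140, against -0.234. Hamp read 7.16, 8.50 and 8.32, against 4.54. Over all 14 measured genes of BMP and SMAD control the median deviation of corn oil replicate 3 from replicates 1 and 2 was -0.13, against 0.00 over all genes.

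The heme oxygenase gene Hmox1, whose enzyme frees iron from heme, stood 0.87 lower in the liver of corn oil replicate 3. Most erythroid transcripts were higher there: Ahsp, the alpha-hemoglobin chaperone, by 1.34, Alas2, the erythroid enzyme of heme synthesis, by 0.96, and the globin gene Hba-a1 by 0.55. Over the 8 measured erythroid markers the median deviation was 0.68, and the marker Epor deviated by -0.02. Anthranilic acid liver 3 read higher still than corn oil replicate 3, at 1.21 against 0.68 (log2) for Ahsp and 2.03 against 1.70 for Alas2. Its Hamp signal was 319 times the 75th percentile. In corn oil replicate 3 the Tfrc signal was 1.40-fold that of the other 2 corn oil livers, and the Slc11a2 signal 1.19-fold. The 10 acute phase genes had a median deviation of 0.10 in this animal, and the outermost were Orm1, higher by 0.76, and A2m, lower by 1.80. Over the 9 genes of interleukin 6 and STAT3 control the median deviation was -0.03. Among them Stat3 and Socs3 deviated by 0.50 and 0.52, and Cebpb and Cebpa by -0.62 and -0.42. Deviations of this size also occurred outside the hepcidin pathways. The neutrophil markers S100a8 and S100a9 deviated by 0.58 and 0.75, and the macrophage marker Vsig4 by -0.78. None of these values was tested as a source of the low Hamp signal.

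**Figure D2:**
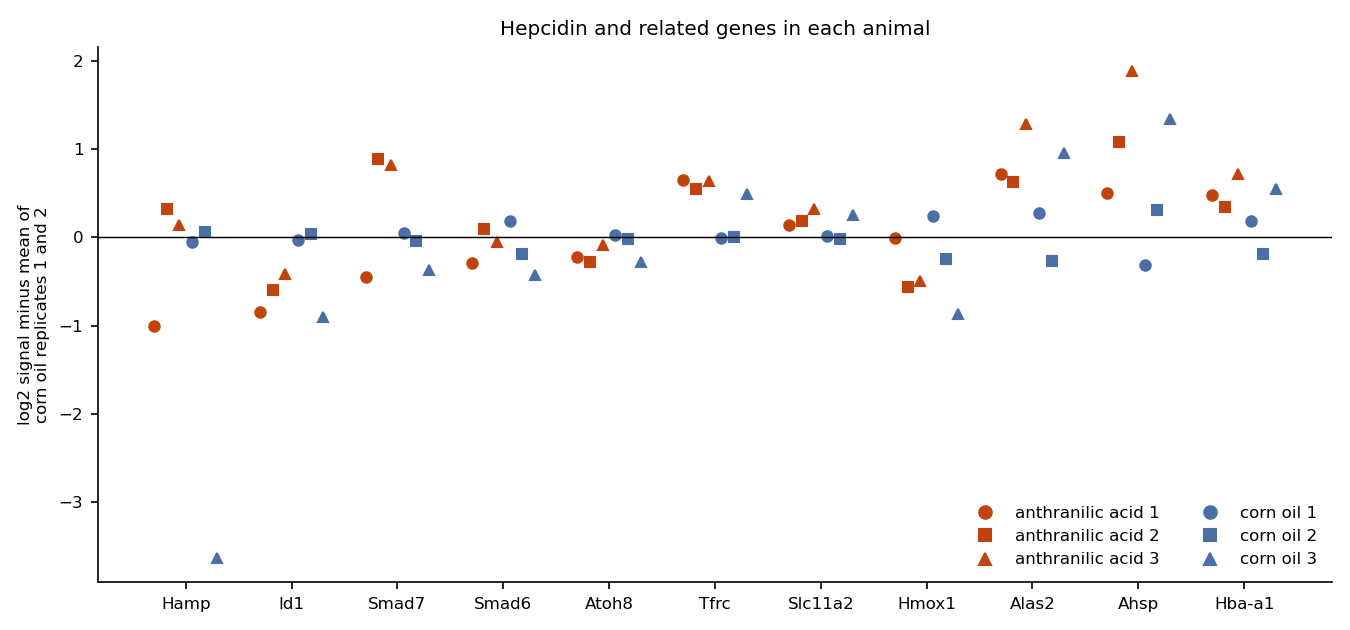
Signal of Hamp and of 10 genes picked after their values were seen, in each rat, as log2 signal minus the mean of corn oil replicates 1 and 2 (y axis), with anthranilic acid rats left of corn oil rats within each gene. Corn oil replicate 3 (blue triangle) stands at -3.63 for Hamp and -0.91 for Id1, and at 0.49 for Tfrc and 1.34 for Ahsp.

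Hfe encodes an MHC class I-like protein that binds TFRC and takes part in iron sensing upstream of hepcidin. At its representative probe A_64_P144794 the signals were 3.82, 3.71 and 4.56 times the 75th percentile in anthranilic acid livers, against 3.34, 3.13 and 3.42 times in corn oil livers. All 3 treated livers stood above all 3 control livers. The difference was 0.28 (SE 0.11, unadjusted p = 0.0382, adjusted p = 0.390), or 1.22-fold with an interval from 1.01 to 1.46. The second probe, A_44_P172140, gave 0.21 (SE 0.14, adjusted p = 0.556), and there the groups overlapped. Anthranilic acid replicate 3 was the highest of the 6 livers at both probes, and without it, which is also the comparison within slide 1, the representative probe gave 0.19 (adjusted p = 0.519).

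Tfr2, the second transferrin receptor and a partner in hepatocyte iron sensing, had signals of 9.01, 13.1 and 10.6 times the 75th percentile in anthranilic acid livers, against 10.8, 10.1 and 11.1 times in corn oil livers. The treated values lay on both sides of the controls. The difference was 0.02 (SE 0.15, adjusted p = 0.971), with an interval from -0.34 to 0.37. Bmp6, the iron-responsive ligand, was read by a probe that was not well above background on any array. Its processed intensities were 11.4, 12.2 and 14.2 in anthranilic acid livers and 12.7, 18.9 and 14.2 in corn oil livers, so no fold is given. Endothelial markers, of the cells that make BMP6, were measured for 5 of 7 genes, and their summed signal was 44.0 to 48.6 times the 75th percentile in anthranilic acid livers and 47.2 to 47.8 times in corn oil livers. The brightest, Kdr, makes up most of that sum and differed by -0.01. Of the 5 markers 4 were below 0, and 0 passed by limma. The median over the 5 markers was -0.02. Lyve1, a marker of sinusoidal cells, stood at -0.34 (SE 0.10, unadjusted p = 0.0135, adjusted p = 0.319) with the groups fully apart, and the junction gene Cdh5 at -0.29 (SE 0.20). Pecam1 stood at -0.02 (SE 0.11), and Eng went the other way, at 0.21 (SE 0.13). These markers were named after their values were seen.

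Tfrc had the smallest unadjusted p among the iron genes, short of the adjusted threshold. At probe A_44_P214811 the signals were 7.40, 6.91 and 7.32 times the 75th percentile in anthranilic acid livers, against 4.71, 4.73 and 6.63 times in corn oil livers. All 3 treated livers were above all 3 controls, although corn oil replicate 3 came close to them. The difference was 0.45 (SE 0.15, unadjusted p = 0.0241, adjusted p = 0.360), or 1.36-fold with an interval from 1.06 to 1.76.

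The other Tfrc probes had the same sign. Probe A_43_P15662 had signals of 0.353, 0.344 and 0.399 times the 75th percentile in anthranilic acid livers, against 0.227, 0.224 and 0.283 times in corn oil livers, again without overlap, and a difference of 0.58 (SE 0.13, unadjusted p = 0.0032, adjusted p = 0.224). Probe A_44_P313767 gave 0.43 (SE 0.28, adjusted p = 0.555), with overlap between the groups. Without corn oil replicate 3 the representative probe gave 0.61 (SE 0.09, adjusted p = 0.175), the lowest adjusted p among the iron genes in any alternative, and still short of the threshold. That rat had the highest control signal at this probe, so leaving it out was bound to raise the difference. Leaving out corn oil replicate 1 or 2 gave 0.36 or 0.37.

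Erythroid cells carry much Tfrc, and the differences of their transcripts lay in the same direction. The summed signal of the 8 measured erythroid markers was 1338, 1203 and 1599 times the 75th percentile in anthranilic acid livers, against 1065, 823 and 1439 times in corn oil livers, where rat 3 was again the highest. All 8 markers had differences above 0, with a median of 0.36, and 0 of 8 passed by limma, nor did any reach an unadjusted p of 0.05. Without corn oil replicate 3 the median was 0.56 and 6 of 8 reached an unadjusted p under 0.05, all higher, against 5.39% of all genes in that fit (lowest adjusted p = 0.317). As that rat had the highest erythroid sum of the controls, leaving it out was bound to raise the difference of the sum. Several of the markers are globin genes that varied together, so the count is not one of independent results. With all arrays Hba-a1, the brightest, differed by 0.33 (SE 0.20). The part of these transcripts in the Tfrc difference was not tested, and in whole liver more cells of a type and more RNA per cell cannot be told apart.

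Tf, the plasma carrier that hepatocytes secrete, had slightly lower signals in treated livers, short of the threshold. At probe A_44_P128147 the signals were 766, 768 and 691 times the 75th percentile in anthranilic acid livers, against 852, 771 and 796 times in corn oil livers. Probe A_64_P044757 read 711, 735 and 713 times in anthranilic acid livers and 758, 777 and 775 times in corn oil livers. Neither probe had overlapping groups. The differences were small, at -0.12 (SE 0.09, adjusted p = 0.606) and -0.10 (SE 0.08, adjusted p = 0.613), and the first had an interval from 0.791-fold to 1.07-fold. With quantile normalization the first was -0.04. The summed signal of the 7 hepatocyte markers was likewise lower in treated livers, at 3223 to 3337 against 3483 to 3641 times the 75th percentile. Of these markers 6 of 7 were below 0, with Apoa1 of high-density lipoprotein at -0.57 (adjusted p = 0.285) and the brightest, Fabp1 of fatty acid binding, at -0.11. The highest intensity on an array was also lower in the treated group, at 600874 to 647565 against 667279 to 690750 on corn oil arrays. The part of such a shift among bright probes in the differences of Tf and these markers was not tested.

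Slc11a2, the divalent metal transporter DMT1 that moves iron out of endosomes, had 3 probes that did not run the same way. Probe A_64_P102433 had signals of 2.79, 2.87 and 3.15 times the 75th percentile in anthranilic acid livers, against 2.55, 2.50 and 3.01 times in corn oil livers, a difference of 0.13 (SE 0.11, adjusted p = 0.634). Corn oil replicate 3 was within the treated range at this probe. Probe A_44_P294711 gave 0.16 (SE 0.12, adjusted p = 0.622). Probe A_64_P102430 read 0.876, 0.752 and 0.913 times in anthranilic acid livers and 1.01, 0.957 and 0.953 times in corn oil livers, without overlap, a difference of -0.20 (SE 0.10, adjusted p = 0.460). All 3 probes carry the same transcript accession, and which parts of the transcript they read was not analysed here. The mean over the 3 probes differed by 0.03.

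Slc40a1, the only known iron exporter of mammalian cells and the target of hepcidin, had treated livers above controls at 2 of its 3 probes, short of the threshold. Probe A_64_P101204 had signals of 10.8, 9.55 and 10.01 times the 75th percentile in anthranilic acid livers, against 8.34, 9.06 and 9.09 times in corn oil livers. The groups did not overlap, and the difference was 0.20 (SE 0.09, adjusted p = 0.436), or 1.15-fold with an interval from 0.984 to 1.33. Probe A_44_P819401 gave 0.21 (SE 0.09, adjusted p = 0.412), also without overlap, whereas A_43_P13162 gave 0.02 (SE 0.14). The low Hamp liver did not stand apart in this gene, being 1.05-fold the mean of corn oil replicates 1 and 2. Macrophages, which recycle iron from red cells, also hold ferroportin. Their 7 measured markers were all below 0, with a median of -0.20, where 52.0% of all genes were above 0. By limma 0 of 7 passed, and 0 reached an unadjusted p under 0.05. Their summed signals were 61.6 to 91.9 in anthranilic acid livers and 77.6 to 102.6 in corn oil livers. The brightest, the Kupffer cell lectin Clec4f, differed by -0.20 (SE 0.20). The part of macrophages in the Slc40a1 difference was not tested.

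The ferritin genes differed little between the groups. Fth1, whose chain oxidises iron on entry, had signals of 373, 395 and 418 times the 75th percentile at probe A_43_P13974 in anthranilic acid livers, against 400.2, 380.3 and 379 times in corn oil livers. The difference was 0.03 (SE 0.09, adjusted p = 0.902), with an interval from 0.886-fold to 1.18-fold. All 4 Fth1 probes stood between 0.03 and 0.13, each with overlapping groups. Ftl1, whose chain helps the iron core form, had signals of 662, 696 and 673 times at probe A_64_P004348 in anthranilic acid livers, against 697, 705 and 689.5 times in corn oil livers. The difference was -0.04 (SE 0.08, adjusted p = 0.844), with an interval from 0.855-fold to 1.10-fold. The 5 Ftl1 probes ran from -0.04 to 0.16, with 4 above 0 and only the representative probe below. Ferritin is controlled largely at translation, which arrays do not measure. In corn oil replicate 3 the Fth1 and Ftl1 signals were 0.971-fold and 0.984-fold those of the other 2 corn oil livers.

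**Figure D3:**
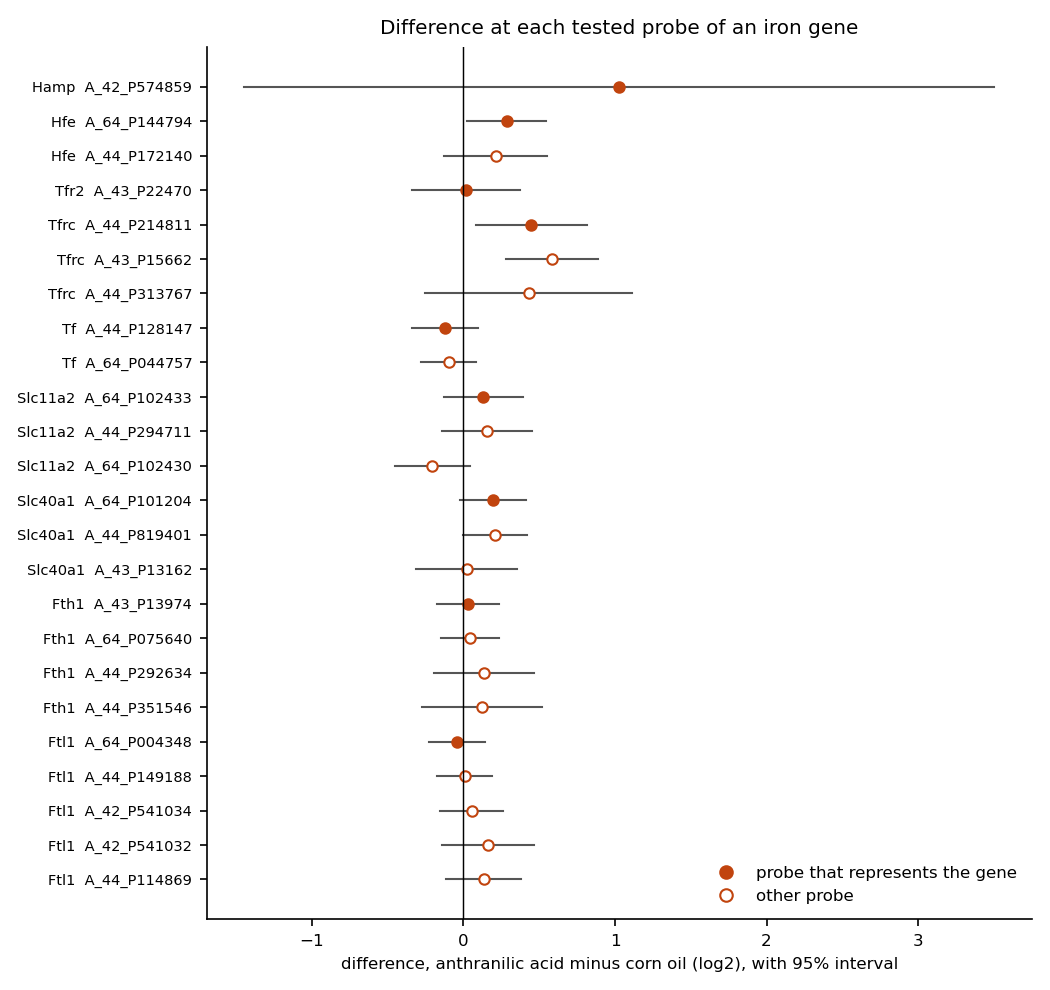
Log2 difference, anthranilic acid minus corn oil (x axis), at each of the 24 tested probes of the iron genes (y axis), with the 95% interval as a line and filled points for the probe that represents its gene. Intervals that leave out 0 belong to 2 Tfrc probes and 1 Hfe probe, before any adjustment, and the Hamp interval runs from -1.45 to 3.50.

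Among the 9 measured genes 7 had differences above 0 and 2 below 0, with a median of 0.13, against 52.0% above 0 and a median of 0.01 over all 10257 genes. For 4 of the 9, treated and control signals were fully apart, namely Tfrc, Hfe and Slc40a1 (higher) and Tf (lower), where 19.8% of all genes did not overlap, 10.7% higher and 9.12% lower. Without corn oil replicate 3 the genes above 0 were 6 of 9, the median was 0.04, and 1 gene, Tfrc, was under an unadjusted p of 0.05, against 11.7% of all genes in that fit.

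The genes that control Hamp through BMP and SMAD signalling were described from a list of 17, of which 14 were measured. By limma 0 of 14 passed, and 1 was under an unadjusted p of 0.05, against 11.6% of all genes. Smad1, a transducer of the pathway, stood at 0.25 (SE 0.10, adjusted p = 0.392), the receptor gene Bmpr2 at 0.35 (SE 0.14, adjusted p = 0.409) and Hjv, the hemojuvelin co-receptor, at 0.28 (SE 0.12, adjusted p = 0.409). These 3 genes and Smad5, 4 of 14, had all treated livers above all controls, as did 10.7% of all genes. The pathway's target Id1 had a difference of -0.31 (SE 0.27) and Smad7 one of 0.54 (SE 0.37), so targets did not share a sign. Over the list, 9 genes were above 0 and 5 below, with a median of 0.07.

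For control by interleukin 6 and STAT3, all 9 listed genes were measured, with 4 above 0, 5 below and a median of -0.06. By limma 0 of 9 passed, and 2 were under an unadjusted p of 0.05, both lower, as were 6.16% of all genes. Creb3l3, a liver factor of the endoplasmic reticulum that can act on the Hamp promoter, stood at -0.32 (SE 0.09, adjusted p = 0.294). Il6r, the interleukin 6 receptor, stood at -0.31 (SE 0.12, adjusted p = 0.401), and the kinase gene Jak2 at -0.13 (SE 0.09). For Creb3l3 and Il6r the groups did not overlap, as for 9.12% of all genes on the lower side. Of 10 acute phase genes, 0 passed and the median was 0.04. Orm1, the acid glycoprotein gene, stood at 0.64 (SE 0.25, adjusted p = 0.398), Apcs, the serum amyloid P gene, at 0.15 and the fibrinogen gene Fgb at -0.08.

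The iron regulatory proteins bind Tfrc and ferritin mRNAs when iron is scarce. Of their genes, Aco1 stood at 0.04 (SE 0.15, adjusted p = 0.925) and Ireb2 at -0.10 (SE 0.09, adjusted p = 0.655). Of 22 other iron and heme carriers, reductases and chaperones, 19 were measured, 10 above 0 and 9 below, with a median of 0.00. By limma 0 of 19 passed, and 1 was under an unadjusted p of 0.05 (11.6% of all genes were), namely Slc25a28 (mitoferrin 2), which brings iron into mitochondria and stood at 0.30 (SE 0.12, adjusted p = 0.395). Steap1 of the metalloreductase family stood at -0.47 (SE 0.23, adjusted p = 0.455), and the zinc and iron importer Slc39a8 at 0.19 (SE 0.09, adjusted p = 0.457). The largest difference in this list was that of Lcn2, at 1.49 (SE 0.76, adjusted p = 0.465), with overlapping groups.

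**Figure D4:**
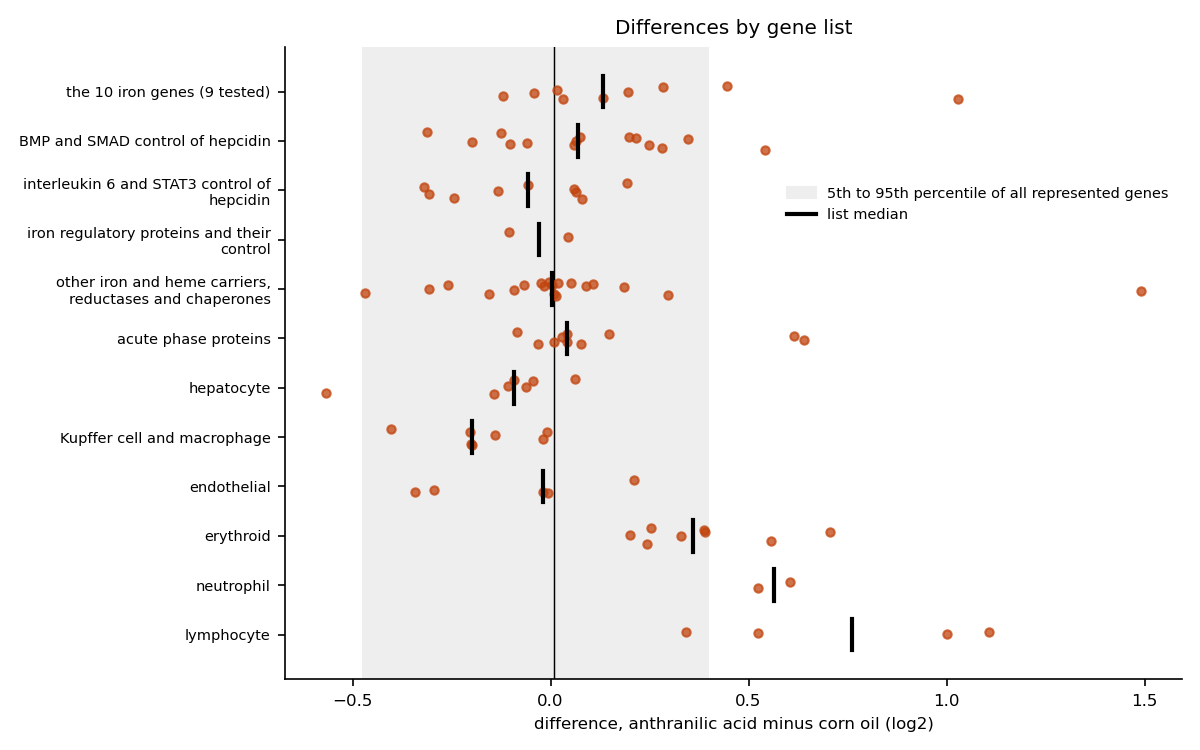
Log2 difference of each measured gene, anthranilic acid minus corn oil (x axis), by gene list (y axis), with a vertical bar at the list median the 5th to 95th percentile of all 10257 tested genes in grey and their median of 0.01 as the thin line. The iron genes have a median of 0.13 with Hamp at 1.03 outermost, while the erythroid markers have a median of 0.36 and the lymphocyte markers one of 0.76.

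Markers of other blood cells also had differences above 0. The 4 measured lymphocyte markers were all above 0 and all under an unadjusted p of 0.05 (5.47% of all genes were, on the higher side), with summed signals of 1.70 to 1.80 times the 75th percentile in anthranilic acid livers and 0.910 to 1.10 times in corn oil livers, and 0 of 4 passed by limma. Their brightest, Cd3g of T cells, stood at 0.52 (SE 0.16, adjusted p = 0.328). Only 2 of 5 neutrophil markers were measured, S100a8 and S100a9, with summed signals of 1.72 to 3.51 in anthranilic acid livers and 1.49 to 2.47 in corn oil livers, and S100a9 stood at 0.52 (SE 0.33). The listed markers Elane, Ngp and Cd3e had a probe but did not meet the detection rule. The part of blood cells in the differences of the iron genes was not tested.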

How the data were processed

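Per the file headers, the deposited files are Agilent Feature Extraction 10.7.1.1 outputs, 1 per array, and the intensity used is the processed signal, which the authors' software had background-subtracted, detrended and kept positive, with no normalization between arrays. The submitters' processing notes name version 10.7. The authors' deposited table holds a ratio of that signal to 1 value per array, which differed from the 75th percentile by 0.0554% to 0.142%; the rule behind it was not given in the sources used here.

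From the intensities, log2 values minus each array's 75th percentile over non-control probes were computed, without 14 outlier-flagged spots of 369942. Probes well above background on all 3 arrays of a group, with 2 unflagged spots in each group, were tested with limma 3.58.1 in R 4.3.3, two-sided, with 4 residual and 2.30 prior degrees of freedom. The procedure was tested on simulated data. Symbols came from unversioned accessions matched to RefSeq GRCr8, for 27460 probes. File headers name rn4, so no array coordinates are given. All 10 iron genes were named with every probe, as were the 3 genes of smallest p of each pathway list and the brightest marker of each cell type; others were named after their values were seen. Members and lists were chosen with earlier results of these data known. The labels do not say that the replicate numbers pair animals, and the main fit did not pair them. Same-numbered arrays had deviations that correlated at r = 0.07, -0.05 and -0.04, which with 3 arrays per group cannot exclude a pairing. Precision is limited by 3 arrays per group. Alternatives covered background, scaling, filter, slide, replicate number, variance model, probe rule, the authors' table and each array left out.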

Additional observations from a re-analysis of the deposited data

How the results depend on the processing

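The count of iron genes past the threshold was 0 in all 12 alternative settings and in each of the 6 fits without 1 array. Not all of these are separate checks. Slide as a fixed block gave the same differences as leaving out anthranilic acid replicate 3, and the authors' table nearly repeated the main fit. At the representative probe, or as the mean over probes where that was the setting, Tfrc, Hfe, Slc40a1 and Slc11a2 stayed above 0 and Tf below 0 in all of these fits. Other probes could differ in sign. Slc11a2 probe A_64_P102430 was at -0.20 in the main fit, and Slc40a1 probe A_43_P13162 at -0.02 without corn oil replicate 3. Hamp was at 0.55 with array weights, and with 1 array left out it ran from -0.18 (without corn oil replicate 3) to 1.66. Sign changes of differences near 0 were those of Tfr2 (-0.058 with normexp, -0.019 with quantile normalization, -0.0060 with the 75th percentile over detected probes, and -0.12 to 0.15 with 1 array left out, below 0 without anthranilic acid replicate 2 or corn oil replicate 2), of Ftl1 (0.041 with quantile normalization, 0.063 with the mean over probes) and of Fth1 (-0.0095 with a slide block, and -0.0095 to 0.074 with 1 array left out, the lowest without anthranilic acid replicate 3). The median over the iron genes ran from 0.08 to 0.16 across settings and from 0.045 to 0.15 with 1 array left out, the lowest without corn oil replicate 3. Over all tested probes 11 passed; there were 50 with normexp, 45 with a trended robust variance, 18 with array weights, 6 with slide as a block, 2 without a filter, 2 with detection required on all arrays, and 4 to 21 with 1 array left out, namely 4 without corn oil replicate 1, 7 and 19 without anthranilic acid replicates 2 and 3, and 21 without corn oil replicate 3. With replicate number as a block, a pairing that the labels do not give, 2 probes passed and no iron gene did. The causes were not tested. Without corn oil replicate 3, examined after its Hamp value was seen, 2 of 14 genes of BMP and SMAD control were under an unadjusted p of 0.05, 1 higher and 1 lower, against 11.7% of all genes in that fit; with it there was 1. Of the iron genes, Bmp6 was too near background to be compared.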
